A study of Mus musculus with 58 samples.

Results

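The macrophage and leukocyte genes are 34 genes, listed by symbol, that mark macrophages and other white blood cells. They were followed in mouse quadriceps muscle across 5 comparisons of mutant and wild-type mice. The symbols were matched to the array annotation, and 33 of the 34 had at least 1 probe set, a group of array probes for 1 transcript, out of 18193 genes so measured. Those 33 genes had 56 probe sets, with 1 probe set for 21 genes and several for 12. Spp1, which encodes the secreted protein osteopontin, had none among the annotated probe sets used. Dim genes were set aside: to be tested, a gene had to read at least 5 on the log2 scale (intensity 32) in as many mice as the smallest group of that experiment. This filter passed 28 members in experiment 1, 29 in experiment 2 and 25 in experiment 3.

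All mice were male, and none had been treated beyond the constitutive genetic changes. Experiment 1 compared CUGexp transgenic Line 20b (n = 6) and CUGexp transgenic Line 41 (n = 6), both on the FVB background, with FVB wild type (n = 6), all at 6 months of age. Experiment 2 compared Clcn1 knockout mice on the BALB background (n = 3), which are myotonic, with BALB wild type (n = 3) at 3 months. Experiment 3 compared Mbnl1 knockout mice on the FVB background (n = 5) with FVB wild type (n = 5) at 3 months. Each CUGexp line is a separate transgenic line that expresses RNA with an expanded CUG repeat, a model of myotonic dystrophy. The promoter that drives the transgene is not given in the sources used here. Clcn1 encodes the chloride channel of muscle fibres and Mbnl1 a splicing regulator that binds CUG repeats. The study's title concerns the effects of the toxic RNA, and the knockouts ask what loss of each gene alone does to the muscle transcriptome.

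Resident macrophages lie between the fibres of healthy muscle, where they take up debris and apoptotic cells. After injury, monocytes enter from the blood, clear necrotic fibres and then turn into macrophages that support regeneration. Phagocytic cells of this kind carry large lysosomes, secrete complement C1q and lysozyme, and bear Fc and scavenger receptors. Many of the listed genes are also transcribed in other cells, and whole muscle RNA mixes them all. In such bulk RNA, more or fewer cells of a type and more or less RNA per cell cannot be told apart.

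The targeted genes read lower in the knockouts: Clcn1 lay at 9.30 to 9.54 on the log2 scale in Clcn1-null mice against 10.25 to 11.27 in BALB wild type, and Mbnl1 at 12.90 to 13.20 against 13.76 to 13.88. Within an experiment, arrays of a kind had similar shares of probe sets that reached an intensity of 32. On 430A arrays the share was 70.3% to 72.3% in experiment 1 and 69.4% to 71.4% in experiment 2. On 430B arrays it was 49.3% to 51% and 44.7% to 47.8%. On the 430 2.0 array of experiment 3 the share was 35.7% to 36.4%. Levels of mice were therefore compared within an experiment only. Levels of different probe sets were set against each other only to choose the brightest probe set of each gene. Skeletal muscle fibre genes averaged 15.43 to 16.28 on the log2 scale in the 34 mice.

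Several members were too dim on these arrays to be tested, which does not show that the cells were absent. Itgam, the integrin alpha chain CD11b, lay at 2.17 to 4.97 on the log2 scale in the 34 mice. Cd14, a co-receptor for bacterial lipopolysaccharide, lay at 2.16 to 5.23, and Ccl2, the chemokine that draws monocytes out of the blood, at 3.12 to 4.48. In Cd14 the Clcn1-null mice, at 4.80 to 5.23, lay above their wild type, at 4.10 to 4.13, but it was too dim to be tested. None of these 3 genes passed the filter in any experiment. Itgb2, the partner chain of Itgam, passed only in experiment 2, where it lay at 5.07 to 5.25 in wild type and 5.24 to 6.11 in Clcn1-null mice. Cd3e, the T cell receptor subunit listed as a lymphocyte marker, passed in experiments 1 and 2 only, and lay at 4.15 to 4.22 in experiment 3. Ptprc, the leukocyte common antigen CD45, was under the filter in experiment 1, at 2.74 to 4.65 by the probe set that stood for it, and passed in the other 2. Adgre1 (F4/80) and Csf1r (the receptor for macrophage colony-stimulating factor), which mark tissue macrophages, passed the filter in all 3 experiments.

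A gene was called when its adjusted p lay under 0.05, with limma's test and Benjamini-Hochberg adjustment over all genes tested in the experiment. Of the tested members, 1 of 28 was called higher and 1 lower in line 20b, where 19.8% of all genes tested were called. In line 41, 1 of 28 was called higher and 0 lower, against 9.48% of all genes. In Clcn1-null muscle, 3 of 29 were called higher and 0 lower, against 5.4% of all genes. In Mbnl1-null muscle, 7 of 25 were called higher and 1 lower, against 16.3% of all genes. Between lines 20b and 41, limma called 0 of 28 members at the gene level, against 5.87% of all genes; 8 members had an unadjusted p under 0.05. In lines 20b and 41 the members' shares of calls, 7.14% and 3.57%, lay under those of all genes. In Clcn1-null muscle, 10.3% (3 of 29), and in Mbnl1-null muscle, 32%, they lay above. The median log2 change of the tested members was 0.41 in Mbnl1-null, 0.24 in Clcn1-null, 0.16 in line 41 and -0.03 in line 20b mice. Over all genes tested the median lay between -0.02 and 0.02 in each of these. Lines 20b and 41 were compared with the same wild-type mice, so their changes are not independent of each other.

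**Figure D1:**
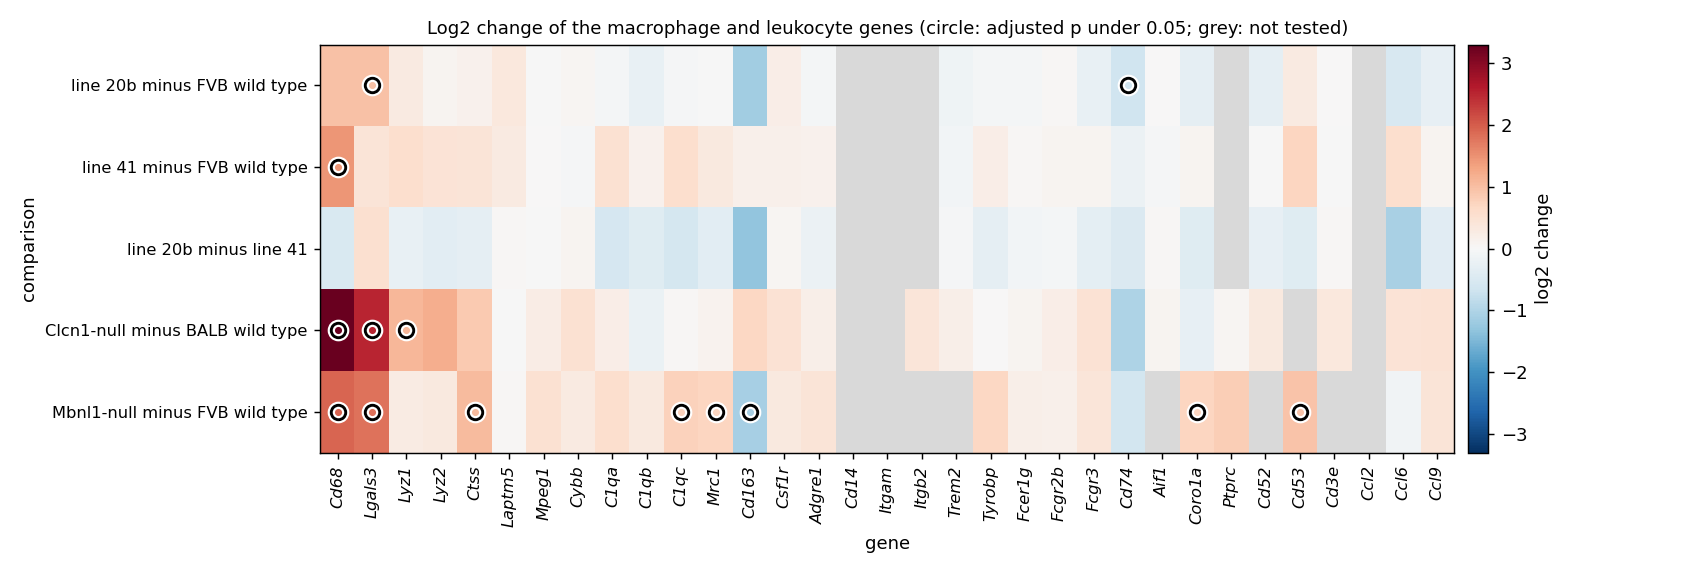
Log2 change of each member gene (columns, ordered by role) in the 5 comparisons (rows), on a colour scale from blue (lower in the group named before "minus") to red (higher); circles mark adjusted p under 0.05 and grey cells genes that did not pass the filter. Cd68 and Lgals3 are red in all 4 comparisons with wild type, and the Mbnl1-null row has the most circles, 8. Csf1r, Ctss, Fcgr2b, Lyz1 and Lyz2 also had positive changes in all 4.

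Cd68 and Lgals3 were the members that rose most often. Cd68 encodes macrosialin, a heavily glycosylated protein of the lysosomal membrane of macrophages, and Lgals3 encodes galectin-3, a lectin that binds galactose-containing sugars and is made by activated macrophages and by several other cell types. Each was called higher in 3 of the 4 comparisons with wild type, and no other member was called higher in more than 1.

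In Clcn1-null mice Cd68 lay at 9.81, 10.23 and 9.84 on the log2 scale, and in BALB wild type at 6.08, 7.37 and 6.67. Every Clcn1-null mouse was therefore well above every wild-type mouse. The log2 change was 3.25 (SE 0.34), or 9.53-fold, with a limma adjusted p of 0.00789. Lgals3 lay at 13, 13.07 and 12.87 in Clcn1-null mice and at 10.20, 11.30 and 9.91 in wild type, again without overlap. It rose 5.69-fold (log2 change 2.51, SE 0.36, limma adjusted p 0.0191). The 3 Clcn1-null mice were within 0.20 of each other in Lgals3, while the wild-type mice were spread over more than that. With 3 mice a group these calls were sensitive to single mice. The Cd68 call was lost without BALB wild-type mouse 3 (adjusted p 0.058), and the Lgals3 call without BALB wild-type mouse 1 or 3 or Clcn1-null mouse 1 or 2 (adjusted p 0.0608 to 0.102). Over the 6 fits that each left out 1 mouse the log2 changes were 2.94 to 3.59 for Cd68 and 2.23 to 2.92 for Lgals3.

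In Mbnl1-null mice Cd68 lay at 8.63, 9.74, 8.15, 8.42 and 7.89, against 6.12, 7.08, 6.58, 7.67 and 5.80 in FVB wild type. The lowest mutant and the highest wild-type mouse differed little, but the groups did not overlap. Cd68 rose 3.77-fold (log2 change 1.91, SE 0.40, limma adjusted p 0.00745). Lgals3 lay at 10.55, 10.36, 9.40, 9.55 and 9.77 in the mutants and at 8.02, 8.26, 7.70, 8.81 and 7.87 in wild type. It rose 3.47-fold (log2 change 1.79, SE 0.26, limma adjusted p 0.00103), also without overlap.

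In experiment 1 the changes were smaller and the groups overlapped. Cd68 ranged from 6.63 to 8.69 in FVB wild type (median 7.86), from 8.16 to 10.12 in line 20b (median 8.68) and from 8.06 to 10.28 in line 41 (median 9.33). It rose 2.76-fold in line 41 (log2 change 1.46, SE 0.40, limma adjusted p 0.0276). In line 20b its log2 change was 0.96 (SE 0.40, limma adjusted p 0.105), which did not pass. Lgals3 ranged from 8.46 to 10.32 in wild type (median 9.73), from 10.02 to 11.05 in line 20b (median 10.65) and from 9.54 to 11.11 in line 41 (median 9.91). It rose 1.94-fold in line 20b (log2 change 0.96, SE 0.29, limma adjusted p 0.0236), and in line 41 its log2 change was 0.43 (SE 0.29, adjusted p 0.413). So each line passed for a different gene of the pair, but the lines did not differ detectably in either: line 20b minus line 41 was -0.51 (SE 0.40, adjusted p 0.566) for Cd68 and 0.53 (SE 0.29, adjusted p 0.34) for Lgals3. The Cd68 call in line 41 was lost without wild-type mouse 4 or 6 or line 41 mouse 2, 3 or 5 (adjusted p 0.0503 to 0.064). The Lgals3 call in line 20b was lost without line 20b mouse 3 or 6 (adjusted p 0.0537 and 0.0526).

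**Figure D2:**
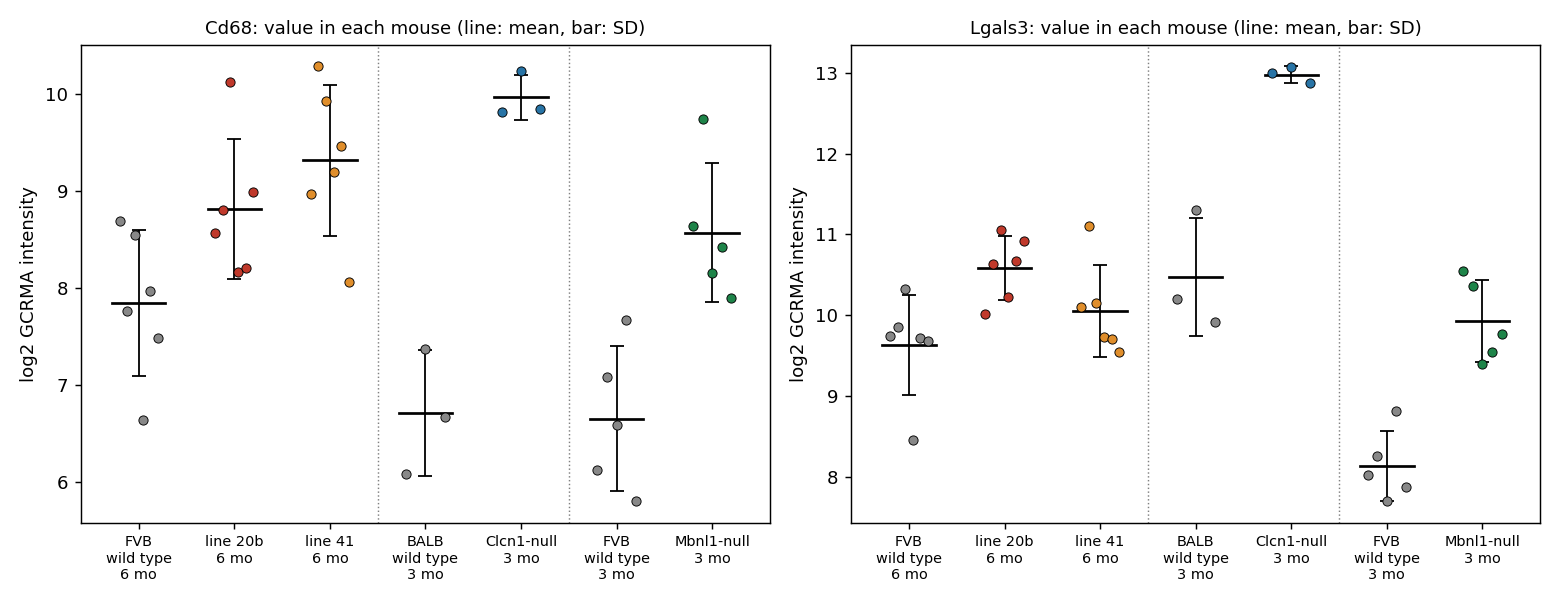
Log2 intensity of Cd68 (left) and Lgals3 (right) in every mouse of the 7 groups (1 point a mouse, line at the mean, bar of 1 SD), with dotted lines between the experiments, whose levels are not comparable. The Clcn1-null mice lie at 9.81 to 10.23 for Cd68 and 12.87 to 13.07 for Lgals3, clear of their wild type, and the 6-month groups overlap.

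The sequences before the start sites of this pair are shown because they are the members that rose most often. RefSeq promoter entries of build GRCm38.p6 existed for 25 of the 34 members, and the 250 bases upstream of the annotated start are printed 5' to 3' on the gene's strand. Capitals mark GAGGAA or its reverse complement, the purine-rich core bound by the myeloid factor PU.1, and TGANTCA, the AP-1 element, each searched on both strands. The 2 motifs share no letters where printed. The Cd68 sequence is chr11:69666171-69666420 (minus strand) and that of Lgals3 is chr14:47373610-47373859 (plus strand).
Cd68: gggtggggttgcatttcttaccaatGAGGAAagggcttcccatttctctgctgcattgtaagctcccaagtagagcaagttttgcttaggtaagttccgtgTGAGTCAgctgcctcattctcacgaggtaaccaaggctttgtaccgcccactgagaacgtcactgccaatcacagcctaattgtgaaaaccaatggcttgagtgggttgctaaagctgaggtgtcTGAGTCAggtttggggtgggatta
Lgals3: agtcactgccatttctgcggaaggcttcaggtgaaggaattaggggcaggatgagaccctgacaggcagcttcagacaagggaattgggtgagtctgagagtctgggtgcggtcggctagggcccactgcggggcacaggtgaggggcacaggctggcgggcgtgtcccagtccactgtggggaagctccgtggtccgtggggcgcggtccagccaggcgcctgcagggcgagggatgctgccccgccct
Cd68 held 1 copy of GAGGAA, starting 225 bases before the start site, and 2 of TGANTCA, both read as TGAGTCA, 149 and 24 bases before it. Lgals3 held neither motif in this window. In all 32851 promoter entries of this length, 23.3% held GAGGAA, 6.75% held TGANTCA and 1.55% held both. Among the 29 entries of the members, 15 held GAGGAA, 4 held TGANTCA and 2 held both. A match is only a stretch of letters, and binding was not measured.

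Lysozymes break down bacterial cell walls. Lyz2 is the form of macrophages and neutrophils, and Lyz1 the form of Paneth cells of the gut, though it is also found in macrophages. They lie next to each other in the genome with no protein-coding gene between them, and their transcripts are alike, so probes of one may take up the other. In Clcn1-null mice Lyz1 lay at 14.01, 13.69 and 13.63, and in BALB wild type at 12.27, 12.94 and 12.81. The groups did not overlap, and Lyz1 rose 2.14-fold (log2 change 1.10, SE 0.21, limma adjusted p 0.0424). Lyz2 lay at 13.37, 13.26 and 14.01 against 12.05, 12.69 and 12.34, also without overlap, but its log2 change of 1.19 (SE 0.26, limma adjusted p 0.0595) did not pass. All 3 tested Lyz1 probe sets had positive changes in these mice, 0.44 to 1.28 on the log2 scale. The Lyz1 call was lost in 5 of the 6 fits that left out 1 mouse (all but Clcn1-null mouse 3; adjusted p up to 0.145). It was also lost with a median shift (adjusted p 0.0623), without the filter (0.0594) and with the mean of probe sets (0.0514).

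In experiment 1 Lyz1 ranged from 13.26 to 14.37 in wild type (median 13.81), from 13.77 to 14.54 in line 20b (median 14.17) and from 14.02 to 14.93 in line 41 (median 14.39). Lyz2 ranged from 12.26 to 13.13 (median 12.56), from 12.20 to 13.08 (median 12.77) and from 12.84 to 13.58 (median 12.95). The groups overlapped, and neither lysozyme passed in either line; the nearest was Lyz1 in line 41, with a log2 change of 0.55 (SE 0.18, limma adjusted p 0.0604). In Mbnl1-null mice Lyz1 lay at 13.67, 13, 12.94, 12.63 and 12.70 against 12.31, 12.89, 12.76, 13.12 and 12.55. Lyz2 lay at 12.76, 11.92, 11.80, 11.68 and 11.80 against 11.25, 11.83, 11.53, 12.09 and 11.58. Mutant mouse 1 was the highest for both, and neither passed (adjusted p 0.415 for Lyz1 and 0.313 for Lyz2).

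C1qa, C1qb and C1qc encode the 3 chains of C1q, which starts the classical complement pathway and tags debris for uptake. The 3 genes lie side by side on 1 chromosome. In Mbnl1-null mice C1qc lay at 9.59, 8.92, 8.91, 8.80 and 8.77 and in FVB wild type at 7.62, 8.64, 8.17, 8.62 and 8.10. The groups did not overlap, and C1qc rose 1.7-fold (log2 change 0.77, SE 0.21, limma adjusted p 0.0313). C1qa lay at 10.46, 9.89, 9.83, 9.71 and 9.78 against 8.73, 9.79, 9.38, 9.74 and 9.31, with overlap and a log2 change of 0.54 (SE 0.21, adjusted p 0.0941). C1qb lay at 12.43, 11.37, 11.38, 11.42 and 11.62 against 10.61, 11.65, 11.55, 11.56 and 11.27, with a log2 change of 0.31 (SE 0.24, adjusted p 0.406). Mutant mouse 1 was the highest mouse for all 3 chains, and wild-type mouse 1 the lowest. The C1qc call was lost without mutant mouse 1 or 3 or wild-type mouse 1, 3 or 5 (adjusted p 0.054 to 0.0672; log2 change 0.62 to 0.79). It was also lost with a median shift of each array (adjusted p 0.0509) and without the filter (0.0588).

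In Clcn1-null mice C1qc lay at 9.55, 9.56 and 9.68 against 9.47, 9.55 and 9.64, with overlap (log2 change 0.04, SE 0.12, adjusted p 0.862). C1qa was close to the filter at 5.24, 5.43 and 5.36 against 5.13, 5.11 and 5.14 without overlap (log2 change 0.22, SE 0.09, adjusted p 0.219). C1qb lay at 11.89, 11.77 and 11.98 against 11.85, 12.54 and 11.93 (log2 change -0.23, SE 0.21, adjusted p 0.566). No C1q chain therefore passed in the muscle in which Cd68 had its greatest change of the 4 comparisons with wild type.

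In experiment 1 C1qa ranged from 10.22 to 11.50 in wild type (median 10.96), from 10.39 to 11.26 in line 20b (median 10.92) and from 10.90 to 11.78 in line 41 (median 11.46). C1qc ranged from 8.95 to 9.90 (median 9.40), from 8.81 to 9.83 (median 9.35) and from 9.50 to 10.47 (median 9.87). Line 41 mice tended to the upper end for both chains, but neither passed at the gene level against wild type (adjusted p 0.108 for C1qa and 0.0904 for C1qc) or against line 20b (0.102 and 0.0969). The probe set standing for C1qb ranged from 10.86 to 11.61 (median 11.34), from 10.86 to 11.20 (median 11.01) and from 11.06 to 12.06 (median 11.24), and passed in neither line.

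When each of the annotated probe sets was tested on its own, with adjustment over all probe sets, another C1qb probe set, 1417063_at, did pass. It ranged from 8.53 to 10.26 in wild type (median 9.67), from 8.80 to 9.64 in line 20b (median 9.45) and from 9.63 to 11.05 in line 41 (median 10.51). It was 1.88-fold higher in line 41 than in wild type (log2 change 0.91, SE 0.27, limma adjusted p 0.0413), where 9.57% of all probe sets were called. Against line 41 it was lower in line 20b (log2 change -1.07, SE 0.27, limma adjusted p 0.0223), where 6.89% were called, although the lowest line 41 mouse and the highest line 20b mouse met. The call against wild type was lost without wild-type mouse 2, 4, 5 or 6, line 20b mouse 2 or 4, or line 41 mouse 1, 2, 3 or 5, with an adjusted p up to 0.0945. That between the lines was lost without line 20b mouse 1 or line 41 mouse 1, 2 or 3, with an adjusted p up to 0.0579. In all 3 C1qb probe sets the line 20b minus line 41 difference was negative, -1.07 to -0.39.

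Mbnl1-null muscle had the most called members of the 4 mutant groups, 8. Beside Cd68, Lgals3 and C1qc, the genes called higher were Ctss, which encodes the lysosomal protease cathepsin S; Mrc1, the mannose receptor of tissue macrophages; Cd53, a tetraspanin of leukocyte membranes; and Coro1a, an actin-binding protein of leukocytes. Ctss lay at 11.11, 10.08, 10.39, 9.96 and 9.97 in Mbnl1-null mice and at 8.82, 9.65, 9.35, 9.64 and 8.87 in wild type. It rose 2.05-fold without overlap (log2 change 1.04, SE 0.25, limma adjusted p 0.015). Mrc1 lay at 11, 10.52, 10.59, 10.45 and 10.45 against 9.32, 10.14, 10.08, 10.18 and 9.81. It rose 1.62-fold, also without overlap (log2 change 0.70, SE 0.17, limma adjusted p 0.017).

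Cd53 lay at 8.02, 7.32, 6.75, 6.45 and 7.09 in Mbnl1-null mice and at 5.80, 6.73, 6.23, 6.47 and 5.76 in wild type, with overlap of mutant mouse 4. Its log2 change was 0.93 (SE 0.29, limma adjusted p 0.0475). Coro1a lay at 7.26, 6.97, 6.19, 6.14 and 6.50 against 5.55, 5.87, 5.76, 6.22 and 6.09, with overlap and a log2 change of 0.72 (SE 0.22, limma adjusted p 0.0492). Both were close to the threshold and were lost in 8 of the 10 fits that left out 1 mouse, with adjusted p up to 0.104 for Cd53 and 0.108 for Coro1a. Both were also lost with a median shift, without the filter and with array weights (adjusted p 0.0571 to 0.138 for Cd53 and 0.0686 to 0.0933 for Coro1a). Of the 20 alternative fits of each gene, 7 kept the Cd53 call and 5 kept that of Coro1a. The Cd53 call stayed without wild-type mouse 2 or mutant mouse 4, and that of Coro1a without mutant mouse 3 or 4. Ptprc lay at 6.55 to 8.10 in the mutants and 6.45 to 6.94 in wild type and did not pass (log2 change 0.81, SE 0.28, adjusted p 0.0747). Mpeg1, which encodes the pore-forming protein perforin-2 of macrophages, was higher in every mutant, 7.33 to 8.20 against 6.85 to 7.28, but did not pass either (log2 change 0.51, SE 0.17, adjusted p 0.0642). In all, 6 of the 25 tested members were higher in every mutant than in every wild-type mouse and 0 were lower, where 14.3% of all genes did not overlap in 1 direction or the other.

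The upstream sequences of the other 3 members that were called in Mbnl1-null muscle with no overlap are shown for comparison with those of Cd68 and Lgals3, in the same way. Mrc1 is chr2:14229164-14229413 (plus strand), Ctss chr3:95526536-95526785 (plus strand) and C1qc chr4:136892915-136893164 (minus strand).
Mrc1: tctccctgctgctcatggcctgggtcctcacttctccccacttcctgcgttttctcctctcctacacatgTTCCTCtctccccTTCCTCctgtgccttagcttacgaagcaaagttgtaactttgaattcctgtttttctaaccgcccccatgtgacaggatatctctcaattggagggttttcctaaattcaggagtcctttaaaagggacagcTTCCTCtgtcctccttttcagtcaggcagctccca
Ctss: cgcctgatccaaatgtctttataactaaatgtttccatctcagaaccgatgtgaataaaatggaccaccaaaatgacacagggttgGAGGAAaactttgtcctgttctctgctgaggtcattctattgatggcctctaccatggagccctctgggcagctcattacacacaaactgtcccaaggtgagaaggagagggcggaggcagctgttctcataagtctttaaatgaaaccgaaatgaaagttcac
C1qc: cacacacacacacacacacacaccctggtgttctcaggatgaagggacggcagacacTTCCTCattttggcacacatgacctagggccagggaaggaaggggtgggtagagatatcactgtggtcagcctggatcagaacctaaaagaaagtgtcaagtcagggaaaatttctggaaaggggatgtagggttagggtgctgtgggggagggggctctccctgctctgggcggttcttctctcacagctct
Mrc1 held 3 copies of the GAGGAA motif, all read as TTCCTC, starting 180, 167 and 35 bases before the start site. Ctss held 1, starting 164 bases before it, and C1qc held 1, read as TTCCTC, 193 bases before it. None of the 3 held TGANTCA. Of the 5 sequences printed, 4 thus held GAGGAA, set against 15 of the 29 entries of all members and 23.3% of all promoters. The 5 were chosen by their calls in these data, and no test was made.

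Mbnl1-null mouse 1 stood apart in these genes. It was the highest of the 5 mutants in 23 of the 25 tested members, and the mean over the members was 9.34 on the log2 scale in this mouse and 8.34 to 8.69 in the other mutants. The wild-type mice lay at 7.89 to 8.54. Without mouse 1, 4 members were called higher (Cd68, Ctss, Lgals3 and Mrc1) and 2 lower (Cd163 and Cd74), and the median log2 change of the 25 fell from 0.41 to 0.20. C1qc (log2 change 0.62, adjusted p 0.054), Cd53 (0.71, adjusted p 0.0724) and Coro1a (0.56, adjusted p 0.0829) no longer passed. For Cd68, the log2 change without this mouse was 1.90 (adjusted p 0.0155), and for Lgals3 1.64 (adjusted p 0.00172). The remaining 4 mutants thus carried both of those changes.

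**Figure D3:**
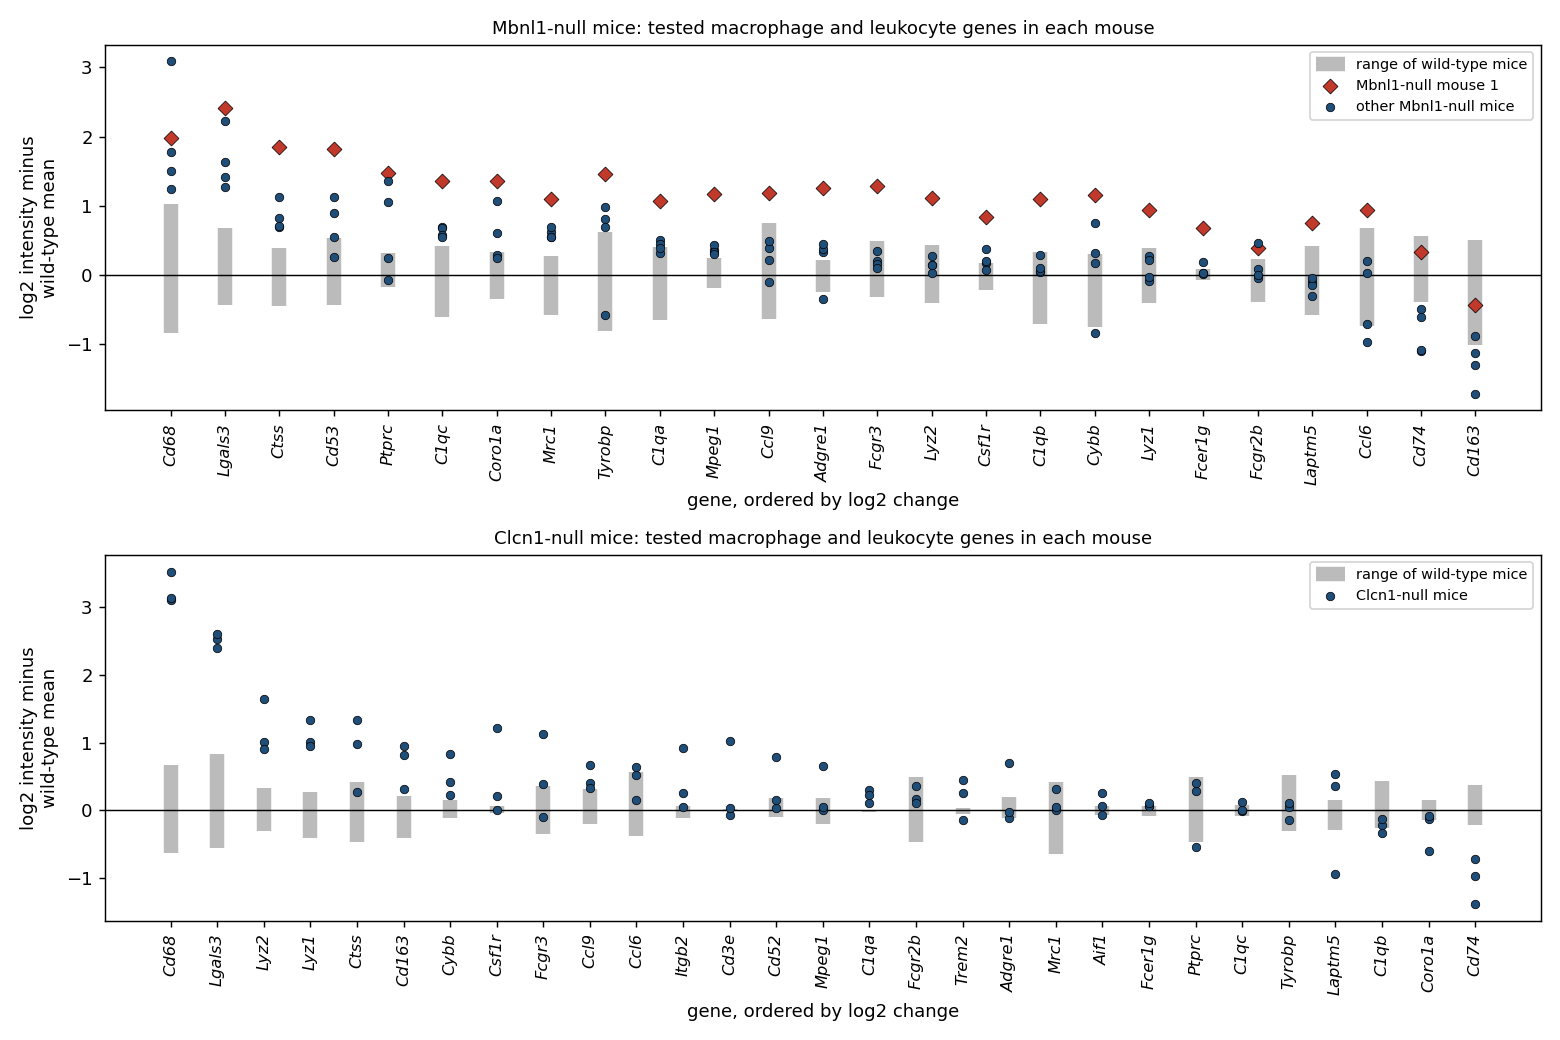
Log2 intensity of each tested member in every Mbnl1-null mouse (upper plot) and Clcn1-null mouse (lower plot), less the mean of the wild-type mice of the experiment, with genes ordered by their log2 change and grey bars for the range of the wild-type mice. Mutant mouse 1 (red diamonds) is the highest Mbnl1-null mouse in 23 of 25 genes, and Cd68 and Lgals3 lead both orders.

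Cd163, the scavenger receptor for haemoglobin bound to haptoglobin and a marker of resident macrophages, went the other way from Cd68 in Mbnl1-null muscle. It lay at 7.25, 6.56, 6.39, 6.80 and 5.97 in the mutants and at 8.09, 7.94, 7.56, 8.20 and 6.68 in wild type. All but 1 of the wild-type mice were above all mutants. Cd163 fell by 1.10 on the log2 scale (SE 0.30, limma adjusted p 0.0301). The call was lost without mutant mouse 2, 3 or 5 or wild-type mouse 1, 2, 3 or 4 (adjusted p 0.053 to 0.0719), with a median shift (0.0522) and without the filter (0.0566).

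In experiment 1 Cd163 ranged from 7.57 to 9.20 in wild type (median 8.53), from 5.75 to 8.16 in line 20b (median 7.53) and from 7.51 to 9.49 in line 41 (median 8.83). The line 20b mice were the low group, with overlap, and the log2 change of -1.14 (SE 0.41) did not pass (limma adjusted p 0.0552). It passed in 7 of 31 alternatives, among them the filter at log2 7 (adjusted p 0.0463) and the fits without wild-type mouse 6, line 20b mouse 2, 3 or 5 or line 41 mouse 6 (0.0344 to 0.0475). Against line 41 the difference was -1.31 (SE 0.41, adjusted p 0.065). In line 41 itself Cd163 was within the wild-type spread (log2 change 0.17, SE 0.41, adjusted p 0.857). In Clcn1-null mice it was higher in every mouse, 11.07, 10.94 and 10.44 against 9.71, 10.32 and 10.33, but did not pass (log2 change 0.70, SE 0.25, adjusted p 0.187). The mannose receptor Mrc1 did not share this pattern. It ranged from 10.52 to 11.90 in wild type (median 11.19), from 10.53 to 11.41 in line 20b (median 11.29) and from 11.29 to 11.82 in line 41 (median 11.54), and passed in neither line. In Clcn1-null mice Mrc1 lay at 11.08, 10.78 and 10.82 against 10.13, 11.19 and 10.99 (log2 change 0.13, SE 0.30, adjusted p 0.83).

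Ctss ranged from 10.41 to 11.17 in FVB wild type (median 10.83), from 10.53 to 11.34 in line 20b (median 10.99) and from 10.95 to 11.83 in line 41 (median 11.18), and passed in neither. In Clcn1-null mice it lay at 13.12, 12.76 and 12.06 against 11.32, 12.21 and 11.82, with overlap of 1 mouse in each group (log2 change 0.87, SE 0.34, adjusted p 0.222). Cd53 ranged from 4.76 to 6.11 in FVB wild type (median 5.67), from 5.44 to 6.16 in line 20b (median 5.89) and from 5.28 to 6.85 in line 41 (median 6.40), with adjusted p of 0.481 and 0.1. It did not pass the filter in experiment 2, at 4.63, 4.67 and 4.80 in Clcn1-null mice and 4.49, 5.61 and 4.64 in wild type. Coro1a ranged from 8.53 to 9.23 in FVB wild type (median 8.70), from 8.14 to 8.72 in line 20b (median 8.63) and from 8.54 to 9.19 in line 41 (median 8.90), and passed in neither line. In Clcn1-null mice Coro1a lay at 6.29, 6.76 and 6.80 against 6.74, 6.88 and 7.04 (log2 change -0.27, SE 0.17, adjusted p 0.421). The members called beside Cd68 and Lgals3 in Mbnl1-null muscle thus passed in no other comparison at the gene level.

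Cd74 encodes the invariant chain, which guides MHC class II molecules to the compartment where they load peptide. In line 20b it ranged from 10.05 to 11.08 (median 10.67), in FVB wild type from 10.92 to 11.78 (median 11.33) and in line 41 from 10.96 to 11.33 (median 11.12). It fell by 0.66 on the log2 scale in line 20b (SE 0.17, limma adjusted p 0.0103), with overlap. Wild-type mice 1 and 2, which are also the highest in adipocyte genes (list means of 13.63 and 13.83 on the log2 scale against 11.65 to 12.36 in the other 4), were among the 3 highest in Cd74, at 11.64 and 11.78. Without both, the log2 change was -0.47 and the adjusted p 0.0789. The part of fat in this result was not tested.

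Cd74 was also lower in every Clcn1-null mouse, at 10.95, 10.53 and 11.19 against 11.75, 12.29 and 11.69, but the log2 change of -1.02 (SE 0.25, limma adjusted p 0.0727) did not pass. In Mbnl1-null mice it lay at 9.87, 8.44, 9.05, 8.45 and 8.93 against 9.47, 10.10, 9.15, 9.59 and 9.40 (log2 change -0.59, SE 0.26, adjusted p 0.151). There mouse 1 was the exception among the mutants, and without it the log2 change was -0.83 and passed (adjusted p 0.0186). In line 41 the log2 change was -0.19 (SE 0.17, adjusted p 0.556). The list of MHC class II and dendritic cell genes had no member called by limma in any of the 5 comparisons, of 10 tested in experiment 1, 11 in experiment 2 and 3 in experiment 3. Its median log2 change was -0.29 in Clcn1-null and -0.18 in Mbnl1-null mice, and -0.15 and -0.03 in lines 20b and 41.

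Ccl6 and Ccl9 are chemokines of myeloid cells that lie next to each other in the genome. The probe set that stood for Ccl9, 1417936_at, ranged from 9.37 to 10.28 in FVB wild type, from 9.16 to 9.83 in line 20b and from 9.47 to 11.08 in line 41, and passed in no comparison. The other, 1448898_at, ranged from 7.65 to 8.82 in wild type (median 8.01), from 6.33 to 7.71 in line 20b (median 7.06) and from 7.83 to 9.55 in line 41 (median 8.26). All line 20b mice were below all line 41 mice in it. It was lower in line 20b than in line 41 by a log2 difference of -1.33 (SE 0.29, limma adjusted p 0.0093) and lower than in wild type by -1.01 (SE 0.29, limma adjusted p 0.0202), where 18.9% of all probe sets were called. The difference between the lines passed in all fits without 1 mouse. That from wild type was lost without line 20b mouse 2 or 6, or without wild-type mice 1 and 2 together, with an adjusted p up to 0.0523. Both Ccl9 probe sets had negative differences between the lines, -1.33 and -0.37. In the 3-month mice 1448898_at lay at 6.77, 7.01 and 7.24 in Clcn1-null against 6.79 to 6.82 in wild type, and at 7.24 to 8.67 in Mbnl1-null against 6.93 to 8.13.

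Ccl6 ranged from 8.48 to 10.71 in FVB wild type (median 9.89), from 8.32 to 9.85 in line 20b (median 9.21) and from 9.04 to 11.76 in line 41 (median 10.07). Its line 20b minus line 41 difference was -1.08 (SE 0.43, adjusted p 0.162), in the direction of Ccl9, but it did not pass. In Clcn1-null mice Ccl6 lay at 11.05 to 11.54 against 10.52 to 11.46, and in Mbnl1-null mice at 8.25 to 10.15 against 8.47 to 9.90, with log2 changes of 0.44 and -0.10. Neither passed.

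Fc receptors bind the constant part of antibodies: Fcgr2b is inhibitory, Fcgr3 activating, and Fcer1g is the signalling chain that Fcgr3 needs. Tyrobp (DAP12) is the matching adapter of Trem2, a lipid receptor of macrophages. At the gene level none of the 5 passed in any comparison. Their log2 changes ran from -0.24 to 0.03 in line 20b, from -0.08 to 0.22 in line 41, from 0.02 to 0.47 in Clcn1-null and from 0.18 to 0.67 in Mbnl1-null mice, where Trem2 was not tested. Fcgr2b had 5 probe sets, and 1 of them, 1455332_x_at, passed in line 20b. It ranged from 7.13 to 7.85 in line 20b (median 7.55), from 7.83 to 8.26 in wild type (median 7.98) and from 7.40 to 8.26 in line 41 (median 7.84). The log2 change against wild type was -0.51 (SE 0.15, limma adjusted p 0.0237), and the groups touched. The call was lost without wild-type mouse 1 or 5, without line 20b mouse 1, 2 or 6, or without wild-type mice 1 and 2 together, with an adjusted p up to 0.0657. The 4 tested Fcgr2b probe sets did not all share its direction in line 20b, with changes from -0.51 to 0.03. In the 3-month mice this probe set lay at 9.34, 9.67 and 9.41 in Clcn1-null against 9.22, 9.37 and 8.96, and under the filter value in all 5 Mbnl1-null mice (3.55 to 4.83).

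**Figure D4:**
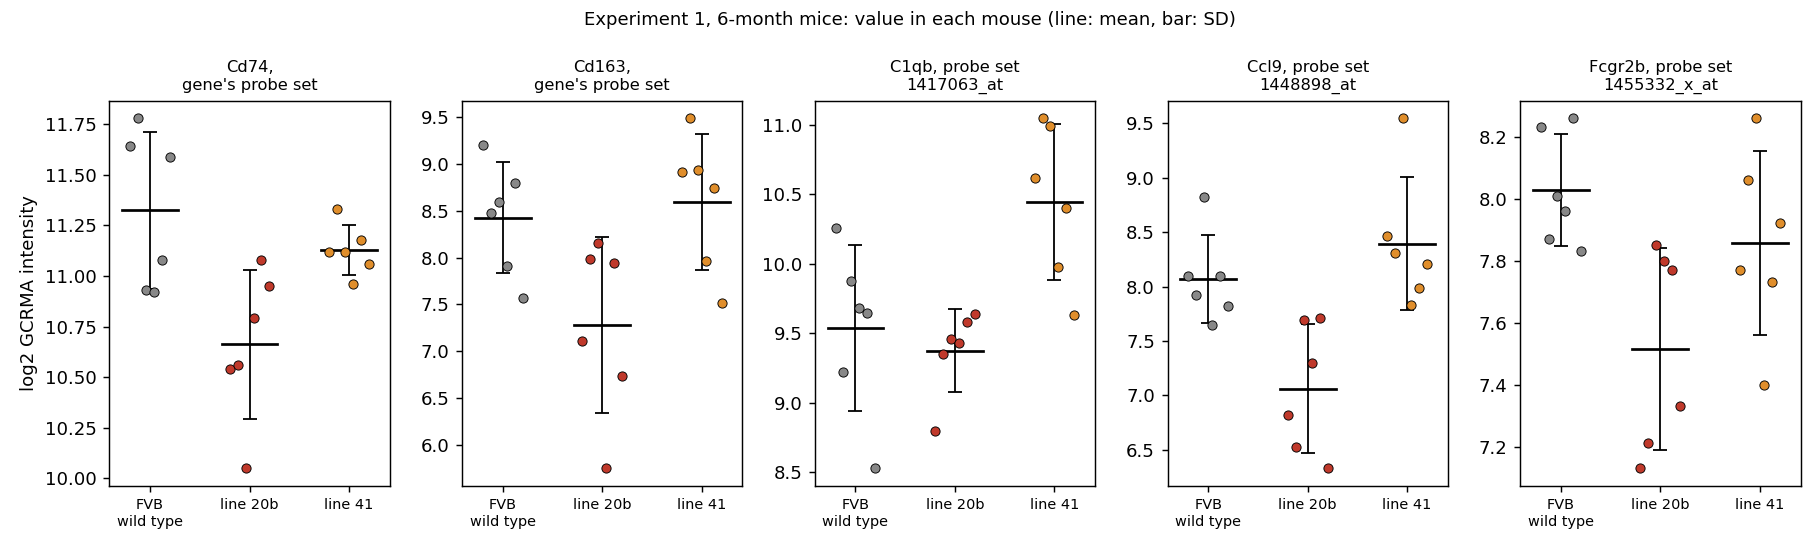
Log2 intensity in every 6-month mouse (1 point a mouse, line at the mean, bar of 1 SD) for Cd74 and Cd163, by the probe set that stands for the gene, and for single probe sets of C1qb, Ccl9 and Fcgr2b. Line 20b has the lowest mean in all 5, and for the Ccl9 probe set its highest mouse, 7.71, is below the lowest line 41 mouse, 7.83. The single probe sets are shown because they were called in a comparison of these mice, so their shared direction is no separate evidence.

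Between the 2 CUGexp lines the members leaned toward line 41. Of the 28 tested, 6 were higher in line 20b and 22 in line 41 by the sign of the difference, with a median of -0.29, where 52.2% of all genes were higher in line 20b. No member passed at the gene level by limma. The members with an unadjusted p under 0.05 were Cd163, C1qa, C1qb, C1qc, Fcgr3, Cd74, Coro1a and Ccl6, all lower in line 20b, with log2 differences from -1.31 to -0.33. Line 41 mice averaged 9.32 to 9.85 over the 28 members, line 20b mice 9.04 to 9.43 and wild type 8.92 to 9.58, so the lines overlapped and both overlapped with wild type. Of the line 41 mice, mouse 2 was the highest in 15 of 28 members and mouse 3 in 8. In neither line did any of the 28 members lie wholly above or below wild type at the gene level, where 10.7% of all genes in line 20b and 4.35% in line 41 did not overlap.

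The remaining members passed in no comparison. Adgre1 lay at 9.50 to 9.80 in FVB wild type, 9.34 to 9.94 in line 20b and 9.42 to 9.93 in line 41, and at 9.98 to 10.78 in Clcn1-null against 9.98 to 10.28. Its log2 change in Mbnl1-null mice was 0.41 (SE 0.24, adjusted p 0.266). Csf1r had 3 tested probe sets, which in Clcn1-null mice had log2 changes of 0.48 to 0.55 and in Mbnl1-null mice of 0.31 to 0.34. For 1 of them, 1419872_at, the Clcn1-null mice lay at 11 to 11.34 and wild type at 10.48 to 10.65, without overlap but with an adjusted p of 0.104. Cybb, the catalytic chain of the phagocyte NADPH oxidase, lay at 8.07 to 8.67 in Clcn1-null mice against 7.73 to 7.99 (log2 change 0.49, SE 0.19, adjusted p 0.202). Laptm5, a lysosomal membrane protein of blood cells, had log2 changes from -0.01 to 0.35 over the 4 comparisons with wild type. Aif1, an actin-binding protein of microglia and macrophages, had changes from -0.04 to 0.09 where tested, and Cd52, a small surface glycoprotein of lymphocytes and monocytes, from -0.30 to 0.33. In Clcn1-null muscle 9 of the 29 tested members were higher in every mutant and 1 was lower in every mutant. With 3 mice a group, 31% of all genes did not overlap.

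For genes with several tested probe sets, the sign of the change was the same in all of them for 6 of 9 members in line 20b, 7 of 9 in line 41, 6 of 8 in Clcn1-null and 6 of 7 in Mbnl1-null mice. In the fit on single probe sets the calls in the knockouts were of the same genes, 3 probe sets in Clcn1-null (4.72% of all probe sets called) and 8 in Mbnl1-null mice (16.2%). Cd68 and Lgals3 had only 1 probe set each, so no other probe set of theirs could be compared.

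Other macrophage genes were read from further lists, and no test compared those lists with the members. Of the 30 genes listed for macrophage lineage and activation outside the members, limma called 0 higher and 5 of 24 lower in line 20b, 0 and 1 of 24 in line 41, 0 and 0 of 24 in Clcn1-null, and 2 and 0 of 17 in Mbnl1-null mice. Over all genes tested, 19.8%, 9.48%, 5.4% and 16.3% were called in these comparisons, in either direction. Genes called lower made up 10.7% of all genes in line 20b and 5.53% in line 41. The 5 of 24 in line 20b thus lay above the share called lower, and the 1 of 24 in line 41 below it. In line 20b, 6 of the 24 had a positive change (median log2 change -0.12), against 47% of all genes. Between lines 20b and 41, 3 of 24 were called, all lower in line 20b, against 5.87% of all genes called and 2.36% called lower. In line 20b the called genes included Apoe, the lipid carrier (log2 change -1.35, SE 0.36, adjusted p 0.0116), Cbr2, a carbonyl reductase (-0.96, SE 0.17, adjusted p 0.000506), and Mertk, a receptor for apoptotic cells (-0.51, SE 0.14, adjusted p 0.0173). In Mbnl1-null mice they were Gpnmb, a glycoprotein of lipid-laden macrophages (1.36, SE 0.31, adjusted p 0.0133), and Ms4a7 (0.89, SE 0.25, adjusted p 0.0326). Of the leukocyte signalling and motility genes, Cd44, the hyaluronan receptor, rose in line 20b (0.73, SE 0.24, adjusted p 0.041) and with Plek, the platelet and leukocyte protein pleckstrin, in Mbnl1-null mice (1.19, SE 0.24, adjusted p 0.00619, and 1.07, SE 0.21, adjusted p 0.00523). These were 1 of 16 and 2 of 8 tested, and none was called in line 41 or in the Clcn1-null mice.

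Of the complement genes beyond C1q, Cd55, an inhibitor of complement on cell surfaces, rose in line 20b (0.41, SE 0.09, adjusted p 0.00282). There C1ra and Serping1, a protease and an inhibitor of the C1 complex, fell (-0.48 and -0.43). Limma called 3 of 12 in line 20b, 0 in line 41 and Clcn1-null, and 1 of 9, Cd59a, in Mbnl1-null mice (-0.39, SE 0.08, adjusted p 0.00676). Over all genes, 19.8% were called in line 20b and 16.3% in Mbnl1-null mice, so 3 of 12 is near the share of all genes. Of the chemokines, growth factors and receptors, limma called 1 higher and 2 lower of 14 in line 20b, and 0 of 14 in line 41. It called 0 higher and 1 lower of 12 in Clcn1-null mice, and 2 and 2 of 8 in Mbnl1-null mice. Over all genes, 19.8%, 9.48%, 5.4% and 16.3% were called in these comparisons. Cxcl14 fell in line 20b (-0.82, SE 0.13, adjusted p 0.000198) and in Clcn1-null mice (-2.00, SE 0.18, adjusted p 0.00544), and Cxcl12 fell in line 20b (-0.88, SE 0.13, adjusted p 9.87e-05). Cx3cl1 rose in line 20b (0.56, SE 0.18, adjusted p 0.0364). In Mbnl1-null mice Ccl11 fell (-0.96, SE 0.15, adjusted p 0.0018) and the receptor chains Csf2rb (0.95, SE 0.26) and Csf2ra (0.62, SE 0.18) rose. Of 24 genes listed for lymphocytes and NK cells, limma called 1 of 5 tested in line 20b and 1 of 5 in line 41. It called 0 of 10 in Clcn1-null and 1 of 3 in Mbnl1-null mice. The shares of all genes called were 19.8%, 9.48%, 5.4% and 16.3%, as above. Each time the called gene was Ighm, the heavy chain of immunoglobulin M. Ighm fell in line 20b (-1.51, SE 0.12, adjusted p 7.9e-08), line 41 (-0.56, SE 0.12, adjusted p 0.00665) and Mbnl1-null mice (-2.04, SE 0.15, adjusted p 2.34e-05). Of the granulocyte and mast cell genes, limma called 1 of 13 in line 20b, Tpsb2, a mast cell tryptase (-0.50, SE 0.12, adjusted p 0.006), and 0 in the other comparisons. The list mean was 9.41 on the log2 scale in Clcn1-null mouse 3, against 7.93 and 8.04 in the other mutants and 7.70 to 7.88 in wild type.

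Genes of other cell types moved beside the members. Adipocyte genes were higher in Clcn1-null mice, where Cd68 and Lgals3 rose most: 5 of 9 tested were called higher, the list mean was 13.59 to 13.70 on the log2 scale against 11.53 to 12.39 in wild type, and Adipoq, which encodes adiponectin, rose by 1.97 (SE 0.15, adjusted p 0.00375). The part of fat tissue in the Cd68, Lgals3 and Lyz1 changes was not tested. In Mbnl1-null mice adipocyte genes averaged 8.98 to 10.51 against 9.56 to 10.76, with 0 of 9 called higher and 1 lower. In line 20b, where Cd74 fell, 5 of 9 adipocyte genes were called lower (median log2 change -0.86), and in line 41 1 of 9 was called lower (median -0.43), with all 9 negative in both. Of the nerve and Schwann cell genes 3 of 6 were called lower in line 20b and 2 of 6 in line 41. Over all genes, 10.7% were called lower in line 20b, 5.53% in line 41 and 8.19% in Mbnl1-null mice. The part of adipocyte or nerve genes in the lower values of members in line 20b was not tested. Of the genes of regenerating muscle, 3 of 9 were called higher in line 20b (median log2 change 0.11), 3 of 9 in line 41 (median 0.32), 1 of 8 in Clcn1-null (median 0.09) and 4 of 7 in Mbnl1-null mice (median 1.46), and 0 lower. Over all genes, 9.09%, 3.94%, 2.2% and 8.12% were called higher. Myh3, embryonic myosin, rose in all 4 (log2 changes of 1.06, 1.29, 3.13 and 1.89), and Myl4, an embryonic myosin light chain, in line 20b, line 41 and Mbnl1-null mice (1.26, 1.59 and 3.52). Their part in the members' changes was not tested. Endothelial genes were lower in line 20b (8 of 12 called) and line 41 (4 of 12), at list means of 10 to 10.41 and 10.02 to 10.52 against 10.64 to 11.01 in wild type, with 0 of 12 called in either knockout.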

How the data were processed

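The authors summarised the probes with GCRMA, per the submitters' processing notes; its version is not given in the sources used here. The deposited tables hold them as linear intensity values, on 430A and 430B arrays for experiments 1 and 2 and on the 430 2.0 array for experiment 3. Here log2 was taken. Of 45037 probe sets, 34945 had 1 gene symbol and were used, 932 had several and 9160 none. A gene was represented by its brightest probe set, averaged across experiments. The test was two-sided, with 1 mean per group and a trended eBayes prior (limma 3.58.1, R 4.3.3), within each experiment. Benjamini-Hochberg adjustment ran across the 12955, 13244 and 8965 genes tested, and a second fit took all probe sets. The fits were also run on simulated data, with noise drawn separately for each gene and mouse. Such data hold no mouse shifted over many genes at once, and no result here rests on them. Experiments were not put on a shared scale.

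The members, gene lists and tests were chosen with earlier results of these data known. All members are named. Members called in any comparison at the gene level, the lysozymes and the C1q chains have values by mouse in experiments 2 and 3. In experiment 1 the text gives their ranges and medians. For each list, up to 3 called genes with the largest change are named. The labels name individual mice per group; p-values measure the spread between them. Arrays give no counts, so their number limits the precision. The titles do not say whether mouse numbers pair mice between groups, and the correlations did not settle it. Deviations of same-numbered mice correlated at -0.19 to 0.35 in experiment 1 (median 0.07, against -0.016 for other pairs). In experiment 2 they correlated at -0.18 to 0.08 (median 0.007 against -0.006). In experiment 3 they correlated at 0.03 to 0.42 (median 0.125 against -0.062). The main fits took the mice as unpaired. Alternatives were other normalisations, filters, a pseudocount of 16, other probe sets, other variance settings, a replicate block, a threshold of 0.01 and each mouse left out.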

Additional observations from a re-analysis of the deposited data

Results flagged for a closer look

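In groups of 5 or 6 mice, 19 of 134 sets of values of a tested member held 1 mouse further from its neighbours than Dixon's 95% limit allows. Chance sets apart about 1 set in 20, and the genes share their mice, so the flags are not independent. Mbnl1-null mouse 1 accounted for 9 of them and was the highest mouse in each: Mrc1 (11 on the log2 scale), Lyz2 (12.76), C1qa (10.46), C1qb (12.43), C1qc (9.59), Fcer1g (7.03), Fcgr3 (8.90), Laptm5 (9.53) and Mpeg1 (8.20). In line 41, mouse 2 was far above the others in Fcer1g (6.56), Ctss (11.83) and Cybb (10.12), and mouse 3 in Ccl9 (11.08). In line 20b, mouse 1 was the highest in Adgre1 (9.94) and the lowest in Mrc1 (10.53), mouse 6 the highest in Fcer1g (6.19) and mouse 2 the lowest in Cd52 (6.32). In FVB wild type, mouse 4 of experiment 1 was the lowest in Lgals3 (8.46) and mouse 2 of experiment 3 the lowest in Cybb (4.28).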

How the results depend on the processing

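Of the 14 calls of a member gene against wild type, Cd68 and Lgals3 in Mbnl1-null mice passed in each of their 21 alternatives. Over the 14 together, 234 of 310 alternatives kept the call, 76 did not and 0 reversed the sign. The cause was not tested where a count below moved.

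Leaving out 1 mouse at a time, all genes called numbered 2205 to 2676 in line 20b, 883 to 1256 in line 41, 509 to 914 between the lines, 97 to 1607 in Clcn1-null and 1049 to 1631 in Mbnl1-null mice. In the same order, members called higher numbered 0 to 1, 0 to 3, 0 to 0, 0 to 5 and 4 to 7, members called lower 1 to 2, 0 to 0, 0 to 2, 0 to 1 and 0 to 2, and member probe sets called 1 to 5, 0 to 5, 1 to 4, 0 to 5 and 4 to 8. Without FVB wild-type mice 1 and 2 together, 0 members were lower in line 20b, 778 genes were called in line 41, and 2 and 1 member probe sets were called in lines 20b and 41.

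At an adjusted p under 0.01, 1456, 502, 242, 161 and 659 genes were called in that order. Then 0, 0, 0, 1 and 2 members were higher, 0 were lower in line 20b and Mbnl1-null mice, and 0, 0, 1, 0 and 2 member probe sets were called. A median shift of each array left 4 members higher, 0 lower, 4 probe sets and 849 genes in Mbnl1-null mice. Without the filter on dim genes the members there were 4 higher and 0 lower with 4 probe sets, and line 41 had 1 probe set. The filter at log2 7 gave 2 members lower in line 20b. The mean of probe sets gave 2 members higher in line 41 and 2 lower in line 20b than in line 41. Array weights gave 2 members higher in line 41, 8 higher and 1 lower with 4585 genes in Clcn1-null, and 2 lower in Mbnl1-null mice.

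The mouse numbers were not taken to pair the groups, although in experiment 3 4 of 5 same-numbered pairs correlated over 0.1. With a replicate block, 2 members were higher and 2 lower in line 20b, 2 were lower in line 20b than in line 41 with 5 probe sets, and 4 were higher in Mbnl1-null mice with 5 probe sets. In Clcn1-null mice the block left 191 genes and 1 member probe set. It ended the calls of Lyz1 in Clcn1-null (adjusted p 0.139) and of C1qc (0.0609), Cd53 (0.0613) and Coro1a (0.0741) in Mbnl1-null mice, and added Cd68 (0.0499) and Cd163 (0.00354) in line 20b against wild type and Cd163 (0.0059) against line 41.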
